A study of Mus musculus with 24 samples.

Results

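The genes described here are 10 genes of cell polarity, a set drawn up around asymmetric division: *Mark2*, *Pard3*, *Pard6a*, *Pard6b*, *Prkci*, *Scrib*, *Dlg1*, *Llgl1*, *Vangl2* and *Numb*. They are found by symbol alone among 53392 genes in the files, and the reads of all transcripts of a gene were summed. The series holds 24 bulk RNA-seq libraries, 3 in each of 8 groups. FiMuSCs, the muscle stem cells (MuSCs) of uninjured hindlimb muscle, and AMuSCs, taken 3 days after cardiotoxin (CTX, 10 µM) was injected into the muscle, were sorted by FACS. Cultured myoblasts and the myotubes they formed after 2 days of differentiation were the other states. Each state was sampled in WT mice (C57BL/10ScSnJ) and in *mdx* mice, whose *Dmd* gene carries a nonsense mutation, and all 8 groups carried the Pax7-nGFP transgene, a nuclear reporter driven by the MuSC gene *Pax7*. Age and sex are described only as matched, and nothing says how many mice entered a library, so a p-value measures the spread between libraries. A different kit was used to extract RNA for cultured than for sorted cells, and kit and cell source cannot be told apart. Sorted and cultured cells were therefore not tested against each other.

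Before an asymmetric division a MuSC distributes proteins unequally along its apical-basal axis, so that one daughter stays a stem cell and the other commits to myogenesis. MARK2, a kinase of the PAR-1 family, binds dystrophin at the basal side and keeps the PAR complex away from it. That complex is built of the scaffold PARD3, the adaptors PARD6A and PARD6B and the atypical protein kinase C encoded by *Prkci*, and it gathers at the opposite side. SCRIB, DLG1 and LLGL1 form the Scribble module, which opposes the PAR complex in polarized cells. VANGL2 is a membrane protein of planar cell polarity, which in MuSCs acts downstream of WNT7A, and NUMB is a fate determinant that inhibits Notch signalling. Polarity rests on where these proteins lie, and RNA-seq measures how much RNA of each gene is present.

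Library totals ranged from 37280196 to 64429222 expected counts. *Pax7* was highest in FiMuSCs (1398 to 1971 CPM, the read count relative to a library's total, scaled over all 24 libraries), *Mki67*, a marker of cycling cells, was highest in AMuSCs (371 to 661) and *Myog*, which drives differentiation, in myotubes (1218 to 2339). *mdx* myoblast replicate 2 stood apart, with *Calcr*, a receptor of quiescent MuSCs, at 20.8 CPM against 0.103 and 1.09 in the other two, and with summed leukocyte markers at 176.5 CPM against 7.70 and 10.3. WT myoblast replicate 2 stood apart in differentiation markers, with *Myog* at 254.9 CPM against 44.8 and 55.97 and summed myofibre markers at 1601 CPM against 261.9 and 304.5. The state of sorted cells differed too, since *mdx* AMuSCs had more *Pax7* (1.16 ± 0.13 on the log2 scale, adjusted p = 0.00193) and less *Mki67* (-0.56 ± 0.16, adjusted p = 0.0432) than WT AMuSCs, and the fall of *Pax7* after injury was smaller in *mdx* (difference 0.94 ± 0.22, adjusted p = 0.015). Of 8 myogenic state markers, 3 were higher and 2 lower in *mdx* AMuSCs, and 2 higher and 1 lower in *mdx* FiMuSCs. Markers of other cells remained in the sorted libraries, with none of a list at a count of 0 in all libraries of a group. The summed level of 10 leukocyte and macrophage markers was 62.8 to 309.7 CPM in WT and 394.7 to 1231 in *mdx* FiMuSCs, and 9.22 to 27.4 in WT and 146.4 to 4240 in *mdx* AMuSCs, where *mdx* AMuSC replicate 1 held the highest value. In both states 5 of the 10 were higher in *mdx* (adjusted p under 0.05). Of 8 mesenchymal progenitor markers, 6 were higher in *mdx* AMuSCs, with sums of 1662 to 2479 CPM against 539.7 to 643.8 in WT. In FiMuSCs 2 of them were higher and 1 lower in *mdx*, with sums of 2390 to 4685 CPM in WT and 2835 to 3268 in *mdx*. From FiMuSCs to AMuSCs 7 of the 8 fell in WT and 5 in *mdx*, beside 64.6 and 27.3% of all genes called. All 8 endothelial markers fell in both genotypes, as did 5 of 6 Schwann cell markers, while 1 rose. Of the leukocyte markers 7 fell in WT and 0 in *mdx*. The part of these changes in the injury responses of the 10 genes was not tested. Summed endothelial markers lay at 277.4 to 327.2 CPM in WT FiMuSCs and at 673.2, 260.4 and 260.6 in *mdx* FiMuSCs, and Schwann cell markers at 77.3 to 136.3 and at 167.5, 67.9 and 47.6, so *mdx* FiMuSC replicate 1 held the most of both. In AMuSCs they lay at 20.0 to 50.7 CPM in WT and 27.5 to 54.97 in *mdx*, and at 25.8 to 30.1 and 47.7 to 59.4, and 3 of 7 tested endothelial and 1 of 5 tested Schwann cell markers were higher in *mdx*. Mature myofibre markers reached 626 CPM at most in sorted cells and 23780 to 37950 CPM in myotubes. Of the leukocyte markers, *Ptprc* had no count in any WT myoblast library and *C1qa*, *C1qb* and *Tyrobp* none in WT myotubes. The others had counts in these groups, and none of the list was absent from all *mdx* myoblast or all *mdx* myotube libraries. The median of their summed level was 5.75 CPM in WT and 10.3 in *mdx* myoblasts, and 9.43 in WT and 9.03 in *mdx* myotubes.

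*Pard6b* apart, the genes were well measured in every group, and for each of them the groups with the highest and the lowest mean were of different states. *Numb* was highest in FiMuSCs, *Prkci* in WT AMuSCs, *Llgl1* and *Vangl2* in myoblasts, and *Scrib*, *Pard3* and *Pard6a* in myotubes. The ratio of the highest to the lowest group mean was 5.57 for *Numb*, 4.52 for *Pard6a*, 4.06 for *Vangl2*, 3.40 for *Prkci* and 3.09 for *Scrib*. It was 2.62 for *Llgl1*, 2.59 for *Dlg1*, 2.30 for *Pard3* and 1.51 for *Mark2*, the most even of these genes. For *Pard6b* it was 20.3, but on counts of 0 to 148 per library. Where such a ratio sets a sorted beside a cultured group, the RNA kit and the cell source cannot be told apart. Per kilobase of the longest coding transcript, the level in WT FiMuSCs was 25.4 CPM for *Numb*, 18.7 for *Mark2*, 17.4 for *Llgl1*, 16.9 for *Scrib*, 15.98 for *Prkci*, 10.3 for *Pard3* and 8.88 for *Dlg1*. *Pard6a* (2.74), *Vangl2* (2.38) and *Pard6b* (0.0295) were the lowest on this scale. In the deposited TPM values, which also weigh short transcripts, WT FiMuSCs had 50.8 TPM of *Mark2*, 49.5 of *Pard3*, 44.8 of *Scrib* and 44.3 of *Numb*, so the order of the leading genes depends on how length is counted.

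**Figure D1:**
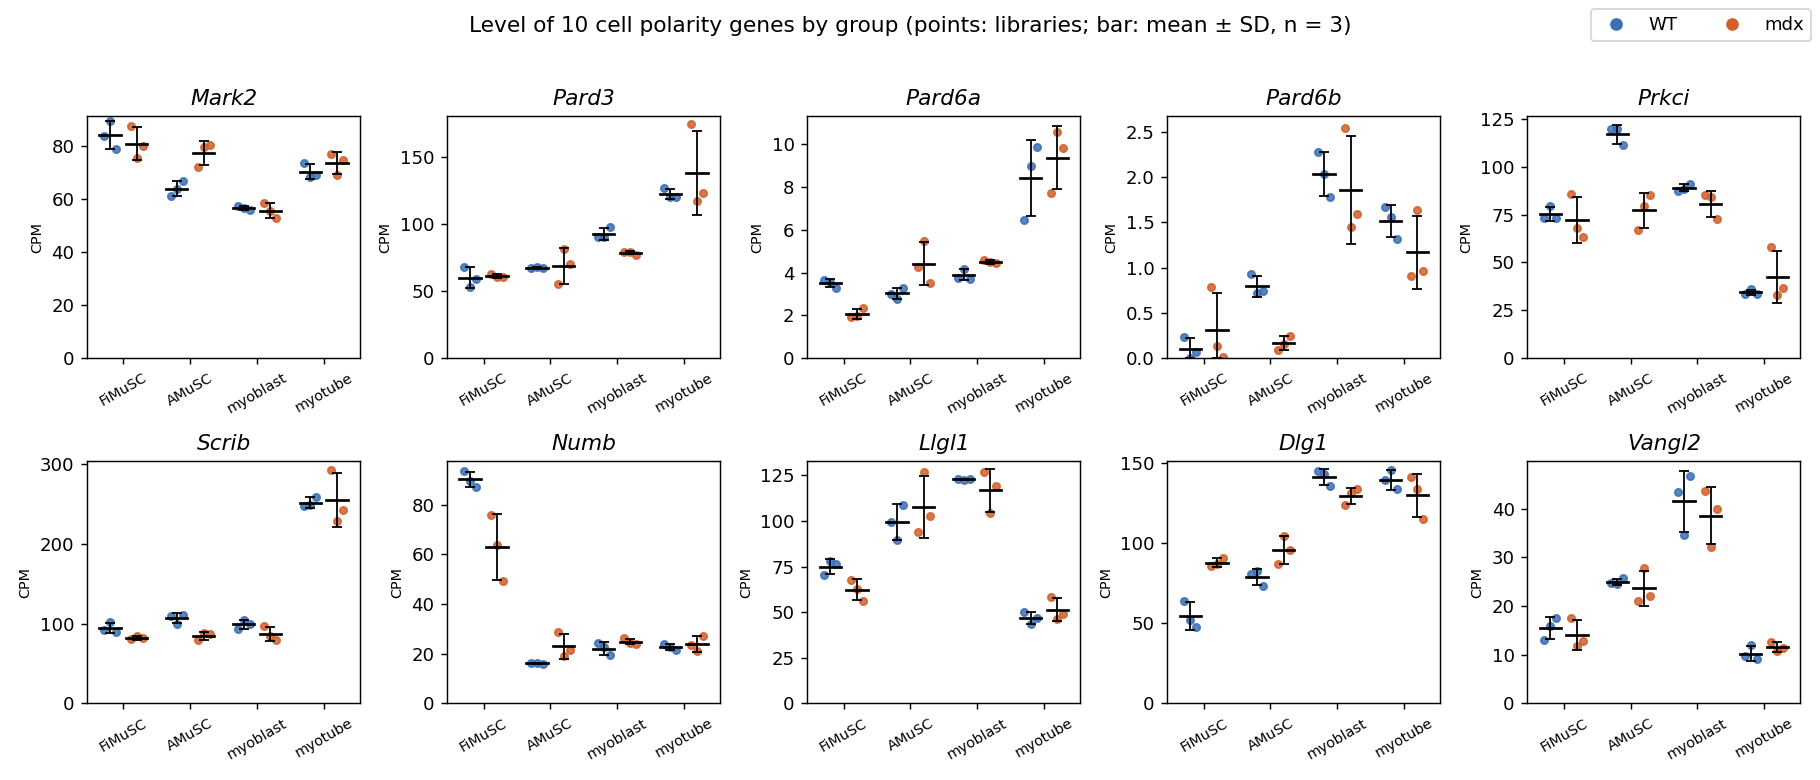
CPM of each gene (vertical axis, from 0) in the 4 states (horizontal axis), with 1 point per library, blue for WT and orange for *mdx*, and the mean ± SD of 3 libraries; error bars end at 0. *Numb* is highest in FiMuSCs, *Scrib* is highest in myotubes, and *Llgl1* and *Vangl2* are highest in myoblasts and lowest in myotubes. Sorted and cultured cells also differ in the RNA kit.

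*mdx* was compared with WT in each state, to ask whether loss of dystrophin goes with other levels of these genes. Calls were made at an adjusted p under 0.05 over all genes tested (edgeR's quasi-likelihood test). In FiMuSCs 1 of 9 tested genes was called, *Dlg1*, against 9.67% of all genes. In AMuSCs 3 of 10 were called, *Prkci*, *Pard6b* and *Scrib*, all lower in *mdx*, against 23.7% of all genes. In myoblasts edgeR called 0 of 10, against 0.360% of all genes. *Pard3* was the 1 gene called by DESeq2, which called 5.54% of all genes, and the 1 gene with an unadjusted p under 0.05 in edgeR, which 14.4% of all genes had. In myotubes 0 of 10 were called by edgeR and 0 by DESeq2, against 0.591 and 4.44% of all genes, and 0 had an unadjusted p under 0.05 in edgeR, against 13.6%. The median absolute log2 fold change of the tested genes was 0.19 in FiMuSCs and 0.31 in AMuSCs, beside 0.27 and 0.47 over all genes. These shares lie near those of all genes.

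The other 2 questions were how the genes respond to injury and to differentiation, and whether the response differs in *mdx*. From FiMuSCs to AMuSCs 8 of 10 genes were called in WT (6 higher, 2 lower), against 64.6% of all genes, and 4 of 9 in *mdx* (3 higher, 1 lower), against 27.3%. The injury response differed between genotypes (*mdx* minus WT) for 3 of 10, *Numb*, *Pard6a* and *Prkci*, against 15.1%. From myoblasts to myotubes 7 of 10 were called in WT, against 69.5%, and 7 of 10 in *mdx*, against 52.2%, with 4 higher and 3 lower in both. The 7 calls in WT held without each library in turn, WT myoblast replicate 2 included. The differentiation response differed between genotypes for 0 of 10 by edgeR and 0 by DESeq2, against 0.0592 and 1.80% of all genes, and 1 (*Pard3*) had an unadjusted p under 0.05 in edgeR, against 12.3%. The comparisons share libraries, so those of 1 state or genotype are not independent of each other.

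**Figure D2:**
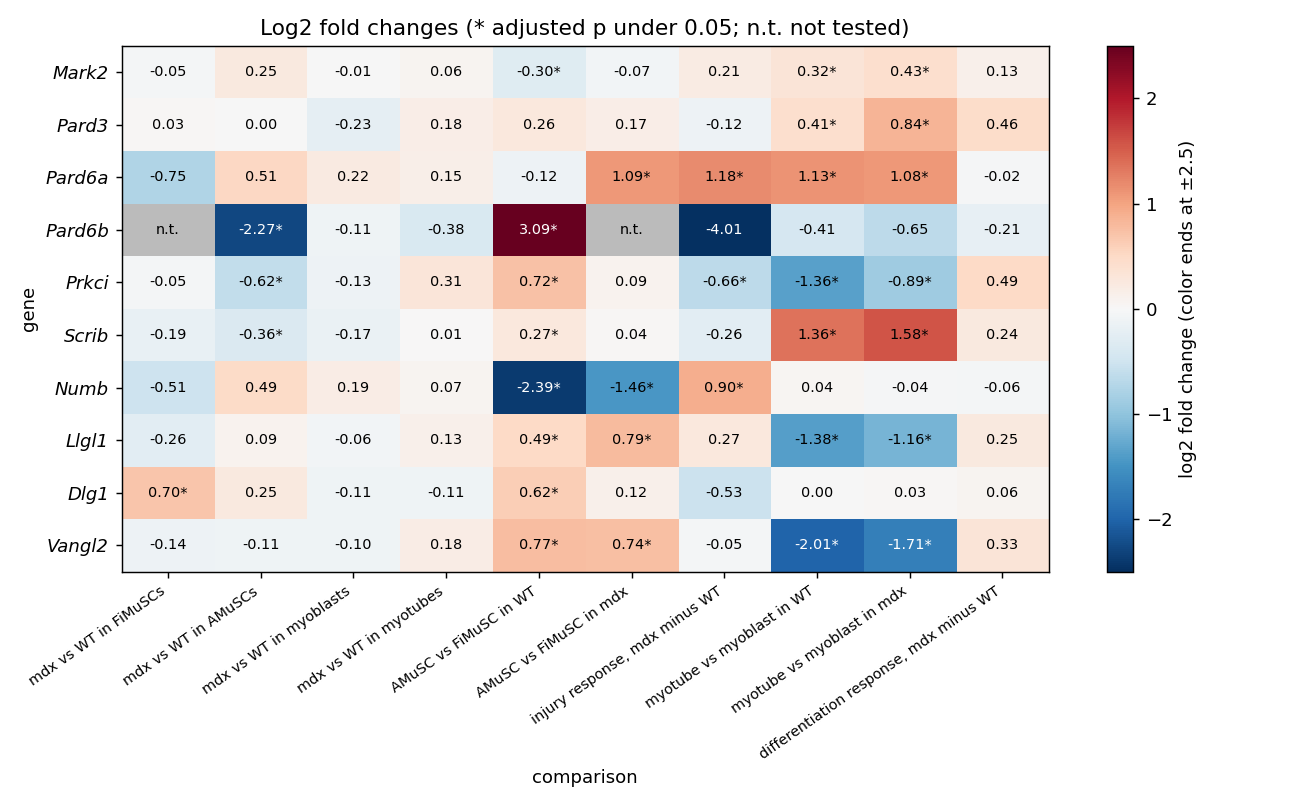
Log2 fold change (color, and printed in each cell) of each gene (rows) in the 10 comparisons (columns), with * for an adjusted p under 0.05 and n.t. for *Pard6b* where it was not tested. The columns for myoblasts and myotubes, *mdx* against WT, hold no *, and the differentiation columns of WT and *mdx* hold * for 7 genes each.

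*Mark2*, the kinase that binds dystrophin, changed little. It was at 83.5, 89.3 and 78.8 CPM in WT FiMuSCs and at 87.4, 75.3 and 79.8 in *mdx* FiMuSCs, and these ranges overlap (log2 fold change -0.05 ± 0.09, SE, adjusted p = 0.798). In WT AMuSCs it was at 61.1, 63.6 and 66.8 CPM, below every WT FiMuSC library, and it fell by 0.30 ± 0.08 on the log2 scale (adjusted p = 0.0103). That call was lost without WT AMuSC replicate 1 (-0.26, adjusted p = 0.0569) and with an offset for transcript length (-0.29, adjusted p = 0.0909). *mdx* AMuSCs, at 72.0, 79.7 and 80.2 CPM, lay above all WT AMuSC libraries, but neither this difference (0.25 ± 0.10, adjusted p = 0.114) nor that of the injury responses (0.21 ± 0.14, adjusted p = 0.361) was called. With all 24 libraries in 1 fit both were (0.28, adjusted p = 0.00921, and 0.33, adjusted p = 0.0399). *Mark2* was lowest in myoblasts, 52.8 to 58.6 CPM over both genotypes, and rose in myotubes by 0.32 ± 0.05 in WT (adjusted p = 0.000967) and 0.43 ± 0.09 in *mdx* (adjusted p = 0.00815). In *mdx* the rise was 0.10 with the length offset (adjusted p = 0.540).

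*Pard3*, the scaffold of the PAR complex, overlapped between FiMuSC and AMuSC libraries and rose with differentiation. It was at 68.2, 53.1 and 59.1 CPM in WT FiMuSCs, 67.3, 67.9 and 67.6 in WT AMuSCs, and *mdx* FiMuSCs (60.4 to 62.8) and *mdx* AMuSCs (55.1 to 81.3) overlapped them. The injury response of WT missed the threshold (0.26 ± 0.10, adjusted p = 0.0518) and passed it without WT FiMuSC replicate 1 (0.35, adjusted p = 0.00794), in DESeq2 (0.28, adjusted p = 0.041) and with DESeq2's size factors (0.28, adjusted p = 0.0363). WT myoblasts had 90.4, 90.1 and 97.9 CPM and WT myotubes 127, 121 and 120, a rise of 0.41 ± 0.05 (adjusted p = 0.0002195), which was 0.20 with the length offset (adjusted p = 0.173). *mdx* myoblasts had 79.5, 79.3 and 77.3 CPM, all below WT, a difference not called (-0.23 ± 0.06, adjusted p = 0.224). *mdx* myotube replicate 1 stood apart at 174 CPM beside 117 and 123, and the rise in *mdx* was 0.84 ± 0.17 (adjusted p = 0.00674). Without that library it was 0.64 (adjusted p = 0.00165).

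*Prkci*, the kinase of the PAR complex, rose after injury in WT and differed between WT and *mdx* AMuSCs. WT FiMuSCs had 73.2, 79.4 and 73.1 CPM and WT AMuSCs 120, 120 and 111, a rise of 0.72 ± 0.08 (adjusted p = 7.26e-05) that held without each library in turn. *mdx* FiMuSCs had 85.8, 68.1 and 63.1 CPM and *mdx* AMuSCs 67.0, 79.3 and 85.2, which overlap (0.09 ± 0.17, adjusted p = 0.735). Every *mdx* AMuSC library thus lay below every WT AMuSC library, and *Prkci* was lower in *mdx* by a factor of 1.54 (log2 fold change -0.62 ± 0.13, adjusted p = 0.013). The injury responses differed by -0.66 ± 0.19 (adjusted p = 0.0335). Fewer cells of a type that expresses *Prkci* and less of its RNA per cell cannot be told apart in bulk samples. Leukocyte and mesenchymal markers and *Pax7* were higher and *Mki67* lower in *mdx* AMuSCs, as given above, and their part in the result was not tested. Without *mdx* AMuSC replicate 1 *Prkci* gave -0.54 on the log2 scale (adjusted p = 0.0199), and the 2 libraries left held 146.4 and 290.2 CPM of leukocyte markers, still above WT. The call in AMuSCs was lost without any 1 of the 3 WT AMuSC libraries (adjusted p 0.0513 to 0.0689) and with the length offset (-0.52, adjusted p = 0.0708). That of the injury responses was lost without each of 7 of 12 libraries, WT FiMuSC replicates 1 and 3, the 3 of WT AMuSCs, *mdx* FiMuSC replicate 2 and *mdx* AMuSC replicate 1 (-0.70 to -0.58, adjusted p 0.0545 to 0.0771). It was also lost with the length offset (-0.67, adjusted p = 0.0747) and with all 24 libraries in 1 fit (-0.54, adjusted p = 0.0956).

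In differentiation *Prkci* fell to its lowest levels. WT myoblasts had 87.4, 88.6 and 91.1 CPM and WT myotubes 33.3, 36.0 and 33.8, so it fell by 1.36 ± 0.06 on the log2 scale (adjusted p = 6.87e-07). *mdx* myotubes had 58.0, 32.9 and 36.8 CPM, replicate 1 being highest, and all lay below *mdx* myoblasts at 84.99, 84.2 and 72.9 (log2 fold change -0.89 ± 0.23, adjusted p = 0.0182). The call in *mdx* was lost without *mdx* myoblast replicate 1 or *mdx* myotube replicate 3 (-0.85 to -0.79, adjusted p 0.0508 to 0.0573) and with the length offset (-0.93, adjusted p = 0.107). Without *mdx* myotube replicate 1 the fall was -1.18 (adjusted p = 0.00106).

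*Pard6a*, an adaptor of the PAR complex, had the lowest mean CPM in each group apart from *Pard6b*, with 90 to 508 reads per library. Per kilobase of the longest coding transcript *Vangl2* was lower, at 2.38 CPM against 2.74 in WT FiMuSCs and 1.57 against 6.62 in WT myotubes. WT FiMuSCs had 3.65, 3.54 and 3.28 CPM and WT AMuSCs 3.00, 2.79 and 3.28 (-0.12 ± 0.20, adjusted p = 0.632). *mdx* FiMuSCs had 1.92, 1.96 and 2.34 CPM, below all WT FiMuSC libraries, but the difference was not called (-0.75 ± 0.20, adjusted p = 0.0651). It was called by DESeq2 (-0.74, adjusted p = 0.00661), with all 24 libraries in 1 fit (-0.75, adjusted p = 0.0287) and with the length offset (-1.33, adjusted p = 0.0387). *mdx* AMuSCs had 4.28, 5.48 and 3.49 CPM, above every *mdx* FiMuSC library, a rise of 1.09 ± 0.30 (adjusted p = 0.0352). The injury responses differed by 1.18 ± 0.34 (adjusted p = 0.0396). The rise in *mdx* was lost without each of 5 of 6 libraries, all but *mdx* AMuSC replicate 3 (0.90 to 1.24, adjusted p 0.0532 to 0.132), and with no filter on low counts (1.07, adjusted p = 0.0621). The difference of responses was lost without each of 10 of 12, all but *mdx* AMuSC replicates 2 and 3 (1.12 to 1.26, adjusted p 0.0651 to 0.101), and with no filter, the length offset, protein-coding transcripts only or long coding transcripts only (0.87 to 1.59, adjusted p 0.0626 to 0.105). In differentiation the gene rose in both genotypes, from 3.72 to 4.18 CPM in WT myoblasts to 6.44 to 9.86 in WT myotubes (1.13 ± 0.20, adjusted p = 0.00138), and from 4.42 to 4.57 to 7.71 to 10.6 in *mdx* (1.08 ± 0.20, adjusted p = 0.00419).

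*Pard6b*, the second PARD6 adaptor in the set, was barely present in sorted cells. WT FiMuSCs had 10, 0 and 3 reads, *mdx* FiMuSCs 40, 6 and 1, and *mdx* AMuSCs 5, 9 and 16, so the gene passed the filter on low counts in neither comparison that sets *mdx* FiMuSCs against 1 other group. The count of 0 allows a level of up to 0.0600 CPM in that library (3 counts, for counting error only). WT AMuSCs had more, with 59, 35 and 45 reads or 0.927, 0.717 and 0.739 CPM, and lay above every other sorted library except *mdx* FiMuSC replicate 1 at 0.784, which falls among them. The test called a rise in WT after injury (3.09 ± 0.84, adjusted p = 0.0115) and a lower level in *mdx* AMuSCs (-2.27 ± 0.54, adjusted p = 0.0221). The latter was lost without any 1 of the WT AMuSC libraries or *mdx* AMuSC replicate 1 (-2.35 to -1.996, adjusted p 0.0566 to 0.106) and with all 24 libraries in 1 fit (-2.25, adjusted p = 0.0551). Leukocyte and mesenchymal markers were higher in *mdx* AMuSCs, as given above, and their part in that call was not tested. The fitted folds of so few reads depend on the prior count and on single libraries: the rise in WT was 2.48 without WT FiMuSC replicate 2 and 4.61 without WT FiMuSC replicate 1. Cultured cells had 31 to 148 reads, 1.78 to 2.27 CPM in WT myoblasts and 1.32 to 1.67 in WT myotubes, without a call in differentiation (-0.41 ± 0.26, adjusted p = 0.186, and -0.65 ± 0.43, adjusted p = 0.252, in *mdx*).

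**Figure D3:**
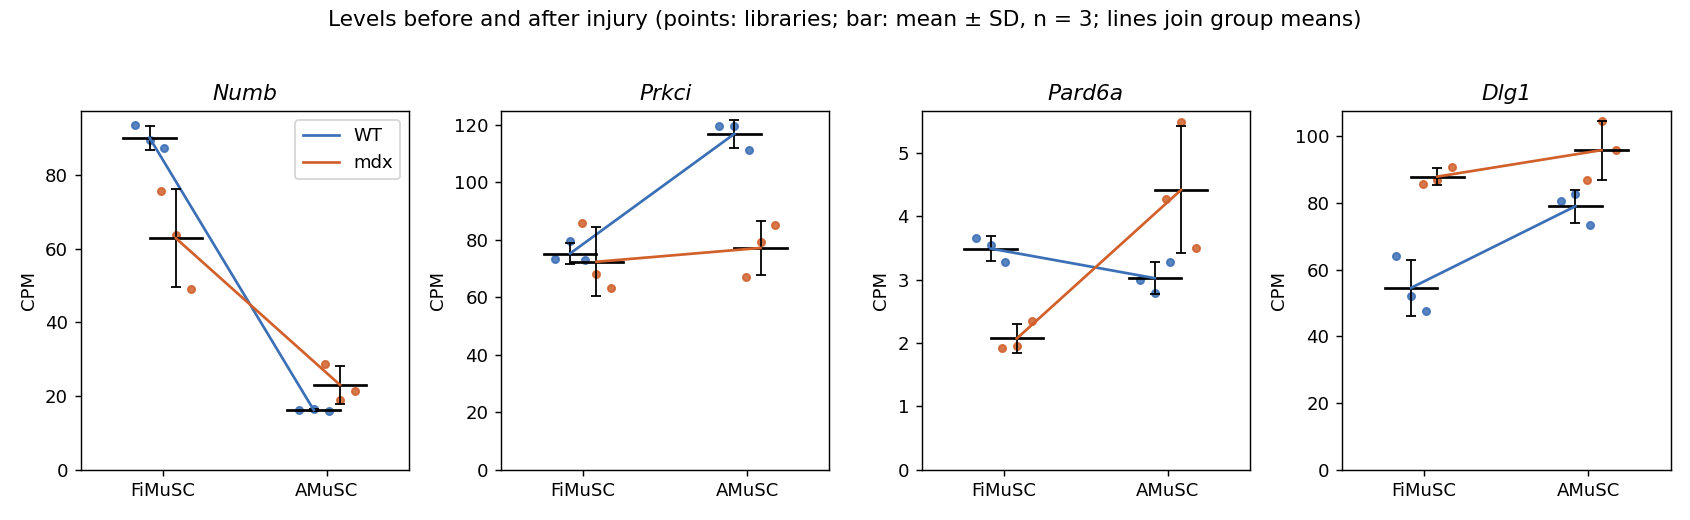
CPM (vertical axis, from 0) of 4 genes in FiMuSCs and AMuSCs, with 1 point per library, the mean ± SD of 3 libraries, and lines that join the group means of WT (blue) and *mdx* (orange). *Numb* falls in both genotypes from a higher level in WT, *Prkci* rises in WT, *Pard6a* is lowest in *mdx* FiMuSCs, and *Dlg1* is lowest in WT FiMuSCs.

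*Dlg1*, a scaffold of the Scribble module, was the gene called between *mdx* and WT FiMuSCs. WT FiMuSCs had 64.0, 52.1 and 47.6 CPM and *mdx* FiMuSCs 85.8, 87.0 and 90.9, with no overlap, so the level in *mdx* was 1.62 times that of WT (log2 fold change 0.70 ± 0.11, adjusted p = 0.0163). Leukocyte markers were also higher in *mdx* FiMuSCs, and their part in the result was not tested. The call was lost without WT FiMuSC replicate 2 or 3 or *mdx* FiMuSC replicate 2 or 3 (0.60 to 0.70, adjusted p 0.0584 to 0.0704), and with the length offset (0.68, adjusted p = 0.0664). WT AMuSCs had 80.7, 82.8 and 73.5 CPM, a rise of 0.62 ± 0.12 from WT FiMuSCs (adjusted p = 0.00159), which with protein-coding transcripts only was 0.31 (adjusted p = 0.0608). *mdx* AMuSCs had 87.0, 105 and 95.9 CPM (0.12 ± 0.13 from *mdx* FiMuSCs, adjusted p = 0.540). They were above WT AMuSCs without a call (0.25 ± 0.11, adjusted p = 0.139), and 3 other settings called this (0.28 to 0.44, adjusted p 0.0246 to 0.0422). The difference between these responses missed the threshold in edgeR (-0.53 ± 0.17, adjusted p = 0.051) and passed it in DESeq2 (-0.50, adjusted p = 0.0204), with the length offset (-0.95, adjusted p = 0.0382), and without WT FiMuSC replicate 1 or *mdx* AMuSC replicate 2 (-0.66 to -0.60, adjusted p 0.0142 to 0.0208). Myoblasts and myotubes had 115 to 146 CPM in both genotypes, and no difference between them was called.

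*Llgl1*, the module's partner of SCRIB that the atypical kinase phosphorylates, rose after injury in both genotypes and fell in myotubes. WT FiMuSCs had 70.2, 78.2 and 76.6 CPM and WT AMuSCs 99.6, 89.5 and 109 (0.49 ± 0.10, adjusted p = 0.00209). *mdx* FiMuSCs had 67.7, 62.5 and 56.2 CPM and *mdx* AMuSCs 93.9, 127 and 102 (0.79 ± 0.16, adjusted p = 0.0121), and the responses did not differ beyond their error (0.27 ± 0.19, adjusted p = 0.394). WT myoblasts had 123, 122 and 123 CPM and WT myotubes 50.1, 43.7 and 46.6, so it fell by 1.38 ± 0.06 (adjusted p = 7.46e-07). *mdx* myoblasts had 127, 104 and 119 and *mdx* myotubes 58.5, 46.5 and 49.1, so it fell by 1.16 ± 0.14 (adjusted p = 0.000689). These 4 calls held without each library in turn.

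*Vangl2* followed the same order of states at a lower level. WT FiMuSCs had 13.1, 15.9 and 17.6 CPM and WT AMuSCs 24.7, 24.4 and 25.7 (0.77 ± 0.13, adjusted p = 0.000897), and *mdx* FiMuSCs had 17.6, 11.7 and 12.9 and *mdx* AMuSCs 21.1, 27.8 and 22.0 (0.74 ± 0.21, adjusted p = 0.0365). The call in *mdx* was lost without replicate 2 or 3 of *mdx* FiMuSCs or of *mdx* AMuSCs (0.61 to 0.79, adjusted p 0.0722 to 0.1297), and with the length offset (0.68, adjusted p = 0.151). Myoblasts had the most, 43.4, 34.6 and 46.7 CPM in WT and 43.6, 32.1 and 40.0 in *mdx*. WT myotubes had 9.66, 11.97 and 9.05 CPM, a log2 fold change of -2.01 ± 0.15 (adjusted p = 9.02e-06), and *mdx* myotubes 12.7, 10.7 and 11.4 (-1.71 ± 0.16, adjusted p = 0.000284). Of all pairs among the 10 genes, *Llgl1* and *Vangl2* had the highest correlation of log2 CPM over the 24 libraries (Pearson's r = 0.95), a description of libraries that fall into shared states and groups.

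Because *Llgl1* and *Vangl2* moved together, the promoters of the genes were searched on both strands for CAGCTG, an E-box bound by myogenic factors, and for GTGGGAA, the site of the Notch effector RBPJ. RefSeq promoter windows (250 bases before to 50 after a start, GRCm38.p6) were found for 9 of the 10 genes, 17 windows in all. CAGCTG was in 3 of the 17, beside 16.3% of 32851 mouse windows, and GTGGGAA was in 1, beside 6.38%. The 1 window was that of *Llgl1*, and neither motif was in that of *Vangl2*. The 250 bases before the *Llgl1* start, chr11:60699450-60699699 on the plus strand of GRCm38.p6, are shown with the match, which lies on the opposite strand, in capitals.
*Llgl1* promoter: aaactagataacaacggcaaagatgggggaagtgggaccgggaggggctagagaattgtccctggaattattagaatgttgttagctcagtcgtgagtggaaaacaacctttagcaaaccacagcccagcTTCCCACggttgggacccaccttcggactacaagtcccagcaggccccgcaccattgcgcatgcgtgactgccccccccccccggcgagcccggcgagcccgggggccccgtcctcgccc

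*Numb*, the fate determinant, had the largest fall after injury among the genes measured throughout. WT FiMuSCs had 93.6, 89.6 and 87.2 CPM and WT AMuSCs 16.3, 16.4 and 15.9, so the level fell to less than any other group had (log2 fold change -2.39 ± 0.08, adjusted p = 3.21e-07), a factor of 5.24. *mdx* FiMuSCs had 75.7, 63.8 and 49.1 CPM, below every WT FiMuSC library, and *mdx* AMuSCs 28.7, 19.0 and 21.4, above every WT AMuSC library, with a log2 fold change of -1.46 ± 0.22 (adjusted p = 0.00344). Both falls held without each library in turn. Markers of other cells also fell after injury, as given above, and their part in these falls was not tested. The injury responses differed by 0.90 ± 0.24 (adjusted p = 0.0262), so the fall was the smaller one in *mdx*. The test within each state did not call the difference, with -0.51 ± 0.16 in FiMuSCs (adjusted p = 0.1003) and 0.49 ± 0.18 in AMuSCs (adjusted p = 0.0924). That in FiMuSCs was called by DESeq2 (-0.51, adjusted p = 0.0364) and with all 24 libraries in 1 fit (-0.52, adjusted p = 0.036). That in AMuSCs was called in 3 alternative settings (0.51 to 0.95, adjusted p 0.0124 to 0.017). Leaving out *mdx* FiMuSC replicate 1 gave a call in FiMuSCs (-0.67, adjusted p = 0.0246) and leaving out *mdx* AMuSC replicate 2 gave one in AMuSCs (0.58, adjusted p = 0.0368).

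*mdx* AMuSC replicate 1, at 28.7 CPM of *Numb*, was also the library with 4240 CPM of leukocyte markers. Without it the injury responses differed by 0.71 (adjusted p = 0.0534) and the difference in AMuSCs was 0.29 (adjusted p = 0.211). The call on the responses was lost without each of 9 of 12 libraries, all but *mdx* FiMuSC replicate 1 and *mdx* AMuSC replicates 2 and 3 (0.71 to 0.92, adjusted p 0.0526 to 0.0664), and with the length offset (1.09, adjusted p = 0.0625). In cultured cells *Numb* stayed between 19.3 and 27.2 CPM in all 12 libraries, and differentiation gave 0.04 ± 0.10 in WT (adjusted p = 0.724) and -0.04 ± 0.13 in *mdx* (adjusted p = 0.836). Of the reads of *Numb*, transcripts with an alternative exon (chr12:83797197-83797343, GRCm38) held 21.0 to 32.1% in the 3 WT AMuSC libraries and 1.44 to 4.77% in the 3 *mdx* AMuSC libraries. The other groups spanned 0 to 18.4%. Transcripts with another alternative exon that was examined (chr12:83825259-83825291) held 8.50 to 29.7% in WT AMuSCs and 10.7 to 14.9% in *mdx* AMuSCs, which overlap. These shares come from the assignment of reads among similar transcripts, were chosen after their values were seen and were not tested.

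*Scrib*, the module's large scaffold, lay between 79.0 and 111 CPM in sorted cells and myoblasts. WT FiMuSCs had 92.5, 102 and 88.9 CPM, WT AMuSCs 110, 99.7 and 111, *mdx* FiMuSCs 80.2, 84.97 and 81.97 and *mdx* AMuSCs 79.0, 88.0 and 86.9. All *mdx* AMuSC libraries were below those of WT, and the difference was called (-0.36 ± 0.11, adjusted p = 0.0441). Leukocyte and mesenchymal markers also differed between these groups, as given above, and their part in this call was not tested. That call was lost without each of 5 of 6 libraries, all but *mdx* AMuSC replicate 2 (-0.42 to -0.33, adjusted p 0.0537 to 0.175), and with no filter, the length offset or long coding transcripts only (-0.38 to -0.36, adjusted p 0.0582 to 0.158). The rise of WT after injury (0.27 ± 0.09, adjusted p = 0.0243) was lost without WT FiMuSC replicate 1 or 3 or WT AMuSC replicate 1 or 3 (0.24 to 0.27, adjusted p 0.0533 to 0.0714), and with all 24 libraries in 1 fit (0.18, adjusted p = 0.119).

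In myotubes the summed reads of *Scrib* rose by a wide margin. WT myoblasts had 92.8, 105 and 99.5 CPM and WT myotubes 247, 249 and 259 (1.36 ± 0.06, adjusted p = 1.065e-06), and *mdx* myoblasts had 96.7, 84.9 and 79.5 and *mdx* myotubes 293, 228 and 243 (1.58 ± 0.14, adjusted p = 0.000239). The rise was 0.42 in WT and 0.62 in *mdx* when protein-coding transcripts alone were counted. After this was seen, the transcripts of *Scrib* (chr15:76047158-76069784, minus strand, GRCm38) were split into 3 classes. The first holds the long coding transcripts Scrib-201, Scrib-202 and Scrib-203, with 36 to 38 exons. The second is Scrib-204, a transcript of 22 exons with no annotated coding sequence. The third holds the 8 short transcripts Scrib-205 to Scrib-212, with 2 to 6 exons at the 3′ end of the gene.

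No change was called for the long coding transcripts as a class. They had 78.8, 75.9 and 81.8 CPM in WT myoblasts and 76.1, 72.4 and 75.1 in WT myotubes (-0.07 ± 0.05, adjusted p = 0.266), and 71.2, 65.0 and 61.5 CPM in *mdx* myoblasts and 69.5, 63.6 and 68.0 in *mdx* myotubes (0.05 ± 0.10, adjusted p = 0.682). Within this class, mean Scrib-202 went from 72.0 CPM in myoblasts to 49.2 in myotubes in WT, and from 63.7 to 39.4 in *mdx*. Mean Scrib-203 went from 4.90 to 25.3 CPM in WT and from 2.17 to 27.7 in *mdx*. These values come from the assignment of reads among similar transcripts and were not tested. The transcripts of the 3′ end had 7.95, 15.7 and 10.9 CPM in WT myoblasts and 131, 134 and 136 in WT myotubes (3.55 ± 0.26, adjusted p = 4.36e-05). In *mdx* they had 11.4, 8.58 and 8.87 CPM in myoblasts and 169, 121 and 132 in myotubes (3.90 ± 0.20, adjusted p = 5.29e-05). Scrib-204 rose too, by 2.34 ± 0.32 in WT (adjusted p = 0.000834) and 2.06 ± 0.20 in *mdx* (adjusted p = 0.000322). The class of the 3′ end took 11.5 ± 3.23% (SD, n = 3) of *Scrib* reads in WT myoblasts, 11.0 ± 0.83% in *mdx* myoblasts, 53.0 ± 0.69% in WT myotubes and 55.0 ± 2.37% in *mdx* myotubes, and 12.4 to 13.8% on average in the sorted groups. Without each library in turn the log2 fold change of this class was 3.33 to 3.84 in WT and 3.75 to 4.04 in *mdx*.

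**Figure D4:**
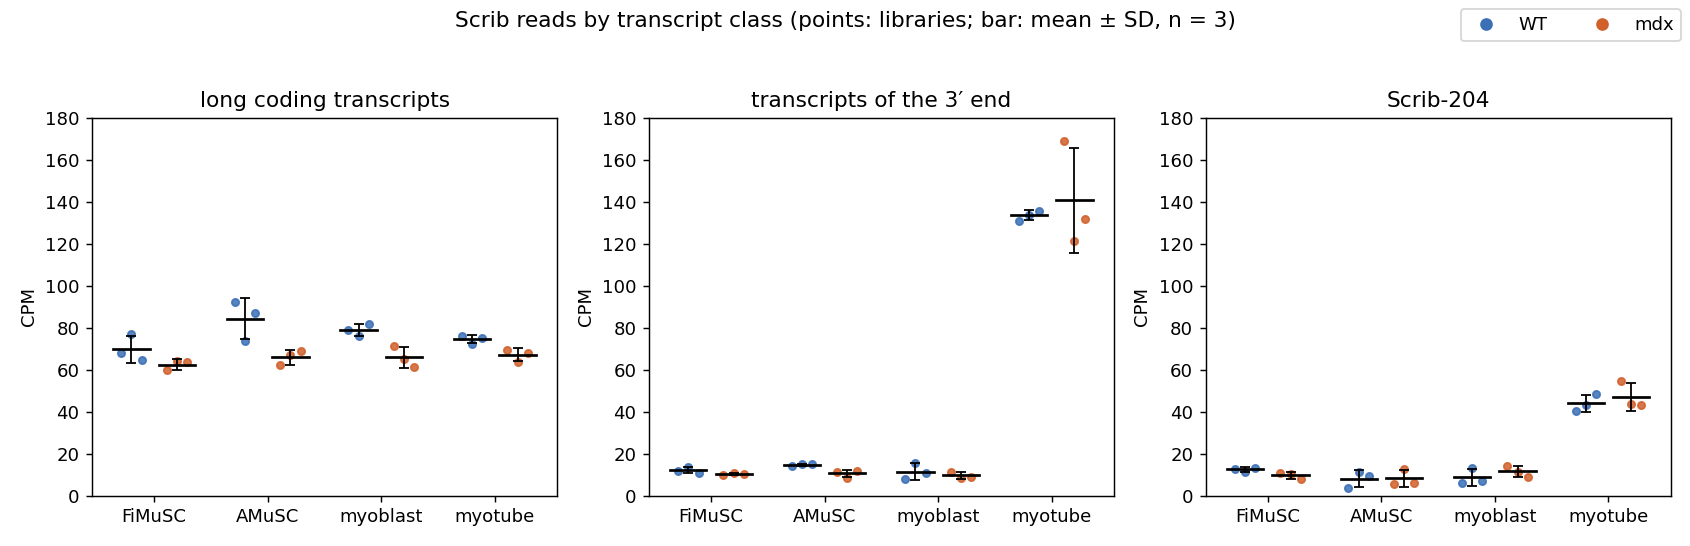
CPM (vertical axis, from 0) of 3 classes of *Scrib* transcripts in the 4 states (horizontal axis), with 1 point per library and the mean ± SD of 3 libraries, blue for WT and orange for *mdx*. The long coding transcripts lie between 59.6 and 92.2 CPM in all 24 libraries, while transcripts of the 3′ end reach 121 to 169 CPM in myotubes and 15.7 CPM at most elsewhere.

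Within the class of the 3′ end, Scrib-212 was the most abundant in WT myotubes, at 70.3 ± 2.95 CPM after 4.78 ± 1.88 in WT myoblasts. Scrib-205, a short transcript annotated as coding, was at 31.1 ± 0.83 CPM after 3.13 ± 1.58, and Scrib-208 was at 21.0 ± 1.25 after 1.42 ± 1.27. In *mdx* myotubes they were at 73.8 ± 9.57, 34.1 ± 6.17 and 22.5 ± 5.24 CPM. Scrib-205 and Scrib-206 begin in an exon of their own, and GENCODE M21 tags this start as backed by CAGE, a method that reads the 5′ ends of RNA. The sequence shows where Scrib-205 parts from the long transcripts. It is the start of its annotated coding sequence, with the 24 bases from its own first exon (chr15:76050680-76050703) in capitals and the 63 bases of the next exon (chr15:76050050-76050112) in lower case, both on the minus strand of GRCm38.
Scrib-205 coding start: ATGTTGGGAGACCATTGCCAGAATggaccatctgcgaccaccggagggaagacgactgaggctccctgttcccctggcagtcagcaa

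Scrib-204, Scrib-208 and Scrib-212 do not begin at the start of Scrib-205 and Scrib-206. The deposited values are sums per transcript without coverage along the gene. More RNA of the short transcripts, whatever its start, and more reads piled up at the 3′ end of long transcripts cannot be told apart from these values. For the other genes with shorter transcripts, the share of reads in long coding transcripts differed less between WT myoblasts and WT myotubes. The mean share went from 84.5 to 81.9% for *Mark2*, 80.0 to 68.5% for *Pard3* and 79.2 to 74.3% for *Dlg1*. It went from 81.9 to 68.8% for *Vangl2* and 90.9 to 84.4% for *Pard6a*. It was higher in myotubes for *Numb* (72.3 and 87.8%), *Prkci* (90.0 and 93.8%) and *Llgl1* (99.4 and 99.8%). The shorter transcripts of these genes were not sorted by their place in the gene. Whether their reads piled up at the 3′ end was therefore not tested. The gene on the opposite strand, K230010J24Rik, ends 176 bases from the 3′ end of *Scrib* and was at 0.0721 to 1.35 CPM in all 24 libraries.

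Around the 10 genes, 56 other genes of 7 lists were examined, which cover PAR-1 kinases, other PAR complex genes, the Crumbs complex, other Scribble module genes, other planar cell polarity genes, spindle orientation and fate determinants, and dystrophin with its partners. In *mdx* against WT, 5 of 52 tested were higher and 4 lower in FiMuSCs, beside 9.67% of all genes called, and 13 of 51 higher and 8 lower in AMuSCs, beside 23.7%. In myoblasts edgeR called 0 of 48, beside 0.360% of all genes, 6 had an unadjusted p under 0.05, beside 14.4%, and DESeq2 called 4, beside 5.54%. The differentiation response differed for 0 of 51 by edgeR, beside 0.0592%, 4 had an unadjusted p under 0.05, beside 12.3%, and DESeq2 called 1, beside 1.80%. In FiMuSCs the largest changes were those of *Ror2* (-2.37 ± 0.31, adjusted p = 0.00754), a WNT co-receptor, of *Celsr2* (-1.89 ± 0.14, adjusted p = 0.00143), a cadherin of planar polarity, and of *Dlg2* (1.24 ± 0.15, adjusted p = 0.0059), a paralog of *Dlg1*. *Ror2* was at low levels, 2.38 to 3.55 CPM in WT and 0.417 to 0.666 in *mdx* FiMuSCs, and 2.15 to 2.78 in WT and 0.219 to 0.801 in *mdx* AMuSCs. *Celsr2* was at 18.9 to 22.3 CPM in WT and 5.01 to 6.15 in *mdx* FiMuSCs. *Prickle1* (0.92 ± 0.14, adjusted p = 0.0139) and *Sntb1* (0.65 ± 0.15, adjusted p = 0.0429), a syntrophin of the dystrophin complex, were higher. *Dmd* itself was at 230 to 262 CPM in WT and 139 to 150 in *mdx* FiMuSCs (-0.76 ± 0.08, adjusted p = 0.00437).

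In AMuSCs *Ror2* (-2.46 ± 0.55, adjusted p = 0.0183), *Gnai1*, a G protein subunit of the spindle complex (-1.48 ± 0.15, adjusted p = 0.00158), and *Mark1* (-1.03 ± 0.29, adjusted p = 0.0396) were lower in *mdx*, and *Dlg2* (2.47 ± 0.57, adjusted p = 0.0219), *Prickle2* (1.87 ± 0.28, adjusted p = 0.00453) and *Lin7a* (1.57 ± 0.31, adjusted p = 0.0117) were higher. *Dlg2* was thus higher in *mdx* in both sorted states, at 12.5 to 14.7 CPM in FiMuSCs and 10.1 to 12.5 in AMuSCs, against 5.25 to 6.42 and 0.542 to 2.83 in WT. The injury response differed for 11 of 53 of these genes, beside 15.1% of all genes, with *Gnai1* lower (-1.66 ± 0.36, adjusted p = 0.0111) and *Prickle2* (2.12 ± 0.32, adjusted p = 0.00203), *Lin7a* (1.62 ± 0.34, adjusted p = 0.0102) and *Prickle3* (1.23 ± 0.31, adjusted p = 0.0217) higher in *mdx*. The marker differences of the sorted groups given above apply here too, and their part was not tested.

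Across the states, *Aurka*, a kinase of the mitotic spindle, rose after injury (4.28 ± 0.42 in WT, adjusted p = 0.000196, and 3.53 ± 0.28 in *mdx*, adjusted p = 0.000276) and fell in myotubes (-4.98 ± 0.08, adjusted p = 5.76e-08, and -4.26 ± 0.47, adjusted p = 0.000592). *Gpsm2*, which links the spindle to the cortex, and *Pard6g*, another PARD6 adaptor, also rose after injury in both genotypes, by 2.40 ± 0.12 and 2.32 ± 0.18 in WT and 2.25 ± 0.21 and 1.73 ± 0.23 in *mdx*. In WT, 19 of 52 genes were higher and 19 lower after injury, beside 64.6% of all genes called, with *Lin7a* (-3.89 ± 0.24), *Dmd* (-3.70 ± 0.13) and *Prickle2* (-3.06 ± 0.17) falling furthest, and in *mdx* 10 of 53 were higher and 8 lower, beside 27.3%, with *Dmd* (-2.57 ± 0.26), *Lin7a* (-2.25 ± 0.25) and *Pard3b* (-1.51 ± 0.15). In myotubes 21 of 48 were higher and 24 lower in WT, beside 69.5%, and 17 of 49 higher and 22 lower in *mdx*, beside 52.2%. *Tiam1*, an activator of RAC1 (-2.90 ± 0.20 in WT, -3.39 ± 0.18 in *mdx*), and *Dlg5* (-2.62 ± 0.13 and -2.54 ± 0.14) fell, and *Dlg2* (4.19 ± 0.19 and 4.16 ± 0.31) and *Sntb1* (4.22 ± 0.62 and 5.01 ± 0.28) rose. *Dmd* rose in WT (4.76 ± 0.51). It was the 1 gene of 48 tested that edgeR called between *mdx* and WT myotubes (-2.37 ± 0.11, adjusted p = 0.000217), beside 0.591% of all genes. DESeq2 called 4 of the 48, beside 4.44%, and 9 had an unadjusted p under 0.05 in edgeR, beside 13.6%. In *mdx* the level of *Dmd* was 2.39, 29.1 and 5.13 CPM in myoblasts, replicate 2 being highest, and 40.1, 47.1 and 38.1 in myotubes. *Celsr3*, a cadherin of planar polarity, rose in *mdx* myotubes (3.47 ± 0.43), from a mean of 0.466 CPM in myoblasts to 5.09. In WT its mean went from 0.544 CPM in myoblasts to 6.02 in myotubes.

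Over the 24 libraries, the genes with log2 CPM most like each of the 10, out of 10358 coding genes searched, were *Rfng* and *Nfix* for *Mark2* (Pearson's r = 0.93 for both), *Fads3* and *Tacc2* for *Pard3* (0.97 and 0.96), *Immp1l* and *Higd2a* for *Pard6a* (0.95 and 0.94) and *Jag2* and *Tspan9* for *Pard6b* (0.93 and 0.92). For *Prkci* they were *Srsf2* and *Recql* (0.96 for both), for *Scrib* *Enah* and *Rhot1* (0.98 for both), for *Dlg1* *Prss23* and *Ptprk* (0.96 for both) and for *Llgl1* *Fgd1* and *Nde1* (0.98 and 0.97). *Vangl2* was most like *Rab34* and *Ganab* (0.97 for both), and *Numb* most like *Acbd4* and *Abhd14b* (0.97 for both). The libraries share 8 groups, so these values describe shared patterns over states.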

How the data were processed

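RNA-seq libraries (poly(A), directional kit) were quantified by the authors per transcript. The deposited expected counts and TPM values came from Salmon 0.13.1 on GRCm38 per the submitters' processing notes, and the strand setting is not given in the sources used here. The deposited effective lengths were used for the length offset. No column holds the authors' comparisons. Expected counts were summed per gene by the symbol in the transcript name (53392 genes, of which 53355 matched GENCODE M21) and rounded. Library totals were 37280196 to 64429222. Replicates were not identical. The smallest count read as present was 3, and intervals cover counting error only.

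Each comparison was fitted on its own libraries in edgeR 4.0.16 (R 4.3.3) with filterByExpr, TMM and the robust quasi-likelihood test, with Benjamini-Hochberg adjustment over all genes. Fold changes are on the log2 scale with their SE. CPM used TMM over 24 libraries. The test was tested on simulated data. Alternatives were DESeq2 1.42.0, its size factors, no filter, 1 fit of all libraries, a replicate block, a transcript length offset, protein-coding transcripts only and leaving out each library. The use of long coding transcripts alone and the *Scrib* classes were chosen after seeing the data. From the 7 lists, up to 3 genes per direction with the largest called change and a mean log2 CPM above 0 were named. The genes and lists were chosen with earlier results of these data known.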

Additional observations from a re-analysis of the deposited data

Results flagged for a closer look

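The injury response of 3 genes differed between genotypes by the interaction test of edgeR, with values given as *mdx* minus WT on the log2 scale. *Pard6a* differed by 1.18, with a rise in *mdx* (1.09) and no call in WT (-0.12). *Prkci* differed by -0.66, with a rise in WT (0.72) and no call in *mdx* (0.09). *Numb* differed by 0.90, with a smaller fall in *mdx* (-1.46) than in WT (-2.39). Each of these calls was lost when certain single libraries were left out, as given with each gene. The part in them of the leukocyte and mesenchymal RNA of *mdx* AMuSCs, and of their higher *Pax7* and lower *Mki67*, was not tested. The part of the markers of other cells that fell from FiMuSCs to AMuSCs was not tested either.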

How the results depend on the processing

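Of 1492 values of single genes under alternatives, 1378 stayed on their side of the threshold and 87 lost and 26 gained a call. The sign changed in 70, of which 69 were called in neither setting. The other 1, a called value, was *Scrib* from WT myoblasts to WT myotubes, at -0.0693 when long coding transcripts alone were counted. The number of the 10 genes called between *mdx* and WT was 3 in FiMuSCs with DESeq2 and 3 with all 24 libraries in 1 fit. In AMuSCs it was 6 with all 24 libraries, 5 with protein-coding transcripts only, 1 with the length offset and 1 with the replicate block, and in myoblasts 1 with DESeq2. With the replicate block it was 2 for the injury response of *mdx* and 1 for the difference of the injury responses, and 1 for the latter with the length offset. Leaving out single libraries gave 0 to 2 in FiMuSCs, 0 to 4 in AMuSCs, 6 to 8 for injury in WT, 2 to 3 for injury in *mdx*, 0 to 4 for the difference of injury responses, 7 for differentiation in WT and 6 to 7 in *mdx*. It gave 0 for myoblasts, myotubes and the difference of differentiation responses. Over all genes, calls ran from 1148 (replicate block) to 3341 (DESeq2) in FiMuSCs against 1876, from 2886 (length offset) to 6380 (all 24 libraries) in AMuSCs against 4582, from 7 to 954 in myoblasts against 62 and from 15 to 714 in myotubes against 95 (replicate block and DESeq2). They ran from 3770 to 7895 for injury in *mdx* against 5357, from 1785 to 4774 for the difference of injury responses against 3189, and from 0 to 334 for that of differentiation responses against 11. The causes were not tested. Replicate numbers were not treated as pairs. Same-numbered libraries correlated at -0.16 to 0.36 in 24 pairs, 3 of them over 0.1, and 8 libraries correlated best with their own number. Between WT myoblasts and WT myotubes the values were 0.10, 0.03 and 0.08, and each myoblast library correlated best with its own number. In *mdx* they were 0.36, 0.06 and 0.09, and replicate 1 alone did so. The labels do not say whether these cultures were paired. With the block the calls lost were *Pard6a* for injury in *mdx* (1.07, adjusted p = 0.101) and for the difference of responses (1.17, adjusted p = 0.0735), *Prkci* for that difference (-0.66, adjusted p = 0.0584), *Pard6b* (-2.34, adjusted p = 0.0649) and *Scrib* (-0.36, adjusted p = 0.113) in AMuSCs, *Scrib* for injury in WT (0.27, adjusted p = 0.05998) and *Vangl2* for injury in *mdx* (0.75, adjusted p = 0.0806). With 3 libraries a group, calls near the threshold depend on single libraries, and *Pard6b* is limited by its depth.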
